A study of Mus musculus with 30 samples.

Results

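Protein kinase C (PKC) is a family of serine/threonine kinases that relay signals from receptors at the membrane, and 6 of its genes were followed here by name among the 54232 genes of a count table, each found through its Ensembl identifier. Prkca encodes a conventional isoform, which calcium and diacylglycerol switch on together. Prkcd, Prkce and Prkch encode isoforms of the calcium-independent class, which need diacylglycerol alone. Prkci and Prkcz encode the atypical isoforms iota and zeta, which bind neither, and are held in place by partner proteins such as the Par6 and p62 scaffolds. In fat cells the family is known for its part in insulin signaling and glucose uptake, and several isoforms are also known to respond to oxidants.

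The cells were 3T3-L1, a mouse preadipocyte line that turns into fat-storing cells in adipogenic medium, and all 30 libraries, control libraries included, came from cells kept in that medium for 5 days. There were 6 groups of 5 libraries. Control cells had no further treatment. The others had pNaKtide at 0.7 µM, indoxyl sulfate (IS) at 100 µM, IS + pNaKtide at the same doses, oxidized LDL (oxLDL) at 50 µg/mL, or oxLDL + pNaKtide. IS is a solute that builds up in kidney failure, oxLDL was used as an oxidant stress, and pNaKtide is a peptide that blocks signaling by the Na,K-ATPase through the kinase Src. The labels give 5 days of treatment, whereas the methods of the study describe daily additions over a shorter time. The labels give the cell line as the source, although their extraction protocol speaks of adipose tissue. Nothing says that the 5 libraries of a group came from separate cultures, so that the p-values measure the spread between libraries, which may be technical.

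Libraries held 6945498 to 15159877 counted reads (median 11524210). All 12 adipocyte markers had a mean of at least 1 FPKM (fragments per kilobase, scaled to depth, as deposited), with a summed level of 4357 to 8047 FPKM per library. Of the preadipocyte or fibroblast markers 11 of 12 reached that level (summed 793 to 1618 FPKM), of the macrophage markers 2 of 7 (summed 3.34 to 6.65 FPKM), and of the endothelial markers 0 of 5 (summed at most 0.0970 FPKM). Control replicate 1 and IS replicate 4 stood apart from their groups on the first principal component of log2 CPM (CPM, counts scaled to library size and normalized by TMM), which held 71.7% of the variance over 9872 genes. For Control replicate 1 the score was 22.4, within the range of oxLDL (12.5 to 35.7), and for the rest of Control it ran from -25.4 to -5.30. The score of IS replicate 4 was -24.4, and those of its group otherwise ran from 19.1 up to 30.9. Most values are also given without these libraries where that changed a call of a member.

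On GRCm38, Prkca lies on chromosome 11 (107933387 to 108343928, minus strand), Prkcd on 14 (30595354 to 30626210, minus), Prkce on 17 (86167785 to 86657919, plus), Prkch on 12 (73584796 to 73778185, plus), Prkci on 3 (30995747 to 31052959, plus) and Prkcz on 4 (155260129 to 155361361, minus). The 5′ end of Prkca overlaps Apoh on the other strand, and Prkci holds the microRNA gene Mir7008. Of the 6 genes 5 were tested, and 3 were called lower with oxLDL + pNaKtide than with oxLDL (Prkca, Prkcd and Prkci). Of all genes tested 26.1% were called lower there. The DNA in front of the start sites of these 3 genes is shown for that reason. Their shared direction holds for the counts with TMM, and Prkca turned to the other side of 0 when a trend over gene length was taken out, as given below. The sequences are the 200 bases from 250 to 51 bases before the RefSeq start on the gene's own strand, 5′ to 3′, from RefSeq's promoter table of GRCm38.p6. That table held 4 of the 6 members, Prkca, Prkcd, Prkci and Prkcz, and did not list Prkce or Prkch. For Prkcd it held 2 windows, of which the first is shown. Capitals mark each GC box, GGGCGG, on either strand.
Prkca (chr11:108343939-108344138, minus strand): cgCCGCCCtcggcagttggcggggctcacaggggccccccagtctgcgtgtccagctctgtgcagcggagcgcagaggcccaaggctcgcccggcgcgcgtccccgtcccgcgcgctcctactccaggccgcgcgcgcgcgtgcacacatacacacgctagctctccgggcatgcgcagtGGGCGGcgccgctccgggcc
Prkcd (chr14:30626259-30626458, minus strand): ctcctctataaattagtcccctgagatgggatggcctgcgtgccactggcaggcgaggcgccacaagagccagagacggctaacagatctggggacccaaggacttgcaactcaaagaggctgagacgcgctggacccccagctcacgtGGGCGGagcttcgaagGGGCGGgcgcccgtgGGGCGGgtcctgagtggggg
Prkci (chr3:30995521-30995720, plus strand): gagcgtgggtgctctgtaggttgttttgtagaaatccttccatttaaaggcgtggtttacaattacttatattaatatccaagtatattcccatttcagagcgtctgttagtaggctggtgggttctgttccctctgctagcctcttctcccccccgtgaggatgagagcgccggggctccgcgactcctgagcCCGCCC

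GC boxes were found in all 3 windows, 2 for Prkca, 3 for Prkcd and 1 for Prkci, and 24.6% of the 32851 windows of this length in the table held at least 1. The windows differed in base composition. G and C made up 76.5% of the Prkca window, 65% of the Prkcd window and 51.5% of the Prkci window, against a median of 51.5% over all windows, with 29, 13 and 9 CpG dinucleotides. The letters TATAAA (9.14% of all windows) and CACGTG (4.34%) were each found 1 time, in the Prkcd window, where the CACGTG shares 1 base with a GC box. GCGTG (22.6% of windows) was found 3 times for Prkca, 1 time for Prkcd and 2 times for Prkci, searched on both strands like the rest. CCAAT (28.4%), TGACTCA (3.61%) and TGACNNNGC (7.66%) were not found in the 3 windows. These are matches of letters only.

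Prkcd, Prkci, Prkce and Prkca carried nearly all of the family's RNA in these cells. On the FPKM scale, which divides by gene length and so allows genes to be compared, Prkcd had the highest level, at 12.0 ± 1.03 FPKM (SD, n = 30). Prkci followed at 6.61 ± 1.37, Prkce at 5.70 ± 0.690 and Prkca at 2.20 ± 0.277 FPKM. Prkcd was above Prkci in 30 of 30 libraries and Prkce above Prkca in 30 of 30. Prkci and Prkce were neighbours within their spread, with Prkci above Prkce in 24 of 30 libraries. That order turned with oxLDL + pNaKtide, where Prkci was above Prkce in 1 of 5 libraries (5.18 ± 1.08 and 5.47 ± 0.643 FPKM). With oxLDL Prkci was above Prkce in 5 of 5 libraries (7.88 ± 0.874 and 6.19 ± 0.734 FPKM). The order was not compared with each library's trend over gene length and GC content, described below, taken out.

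As a share of the FPKM of the 6 members, Prkcd made up 45.4% ± 4.26, Prkci 24.7% ± 3.31, Prkce 21.5% ± 1.95 and Prkca 8.30% ± 0.675 (SD, n = 30). Prkcz and Prkch were close to absent. Prkcz had 66 counts in all, 0 to 6 per library (0.0292 FPKM on average), and Prkch had 12 counts, with 20 libraries at 0 (0.00438 FPKM). In the 5 oxLDL libraries Prkch had 0 counts, and a count of 0 allows up to 3, so that no difference in Prkch was detectable at this depth. Of family genes outside the 6 members, Prkcb had 3 counts and Prkcq 2 over all libraries. The limit for a count of 0 and the exact intervals for rates of pooled counts cover counting error only.

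**Figure D1:**
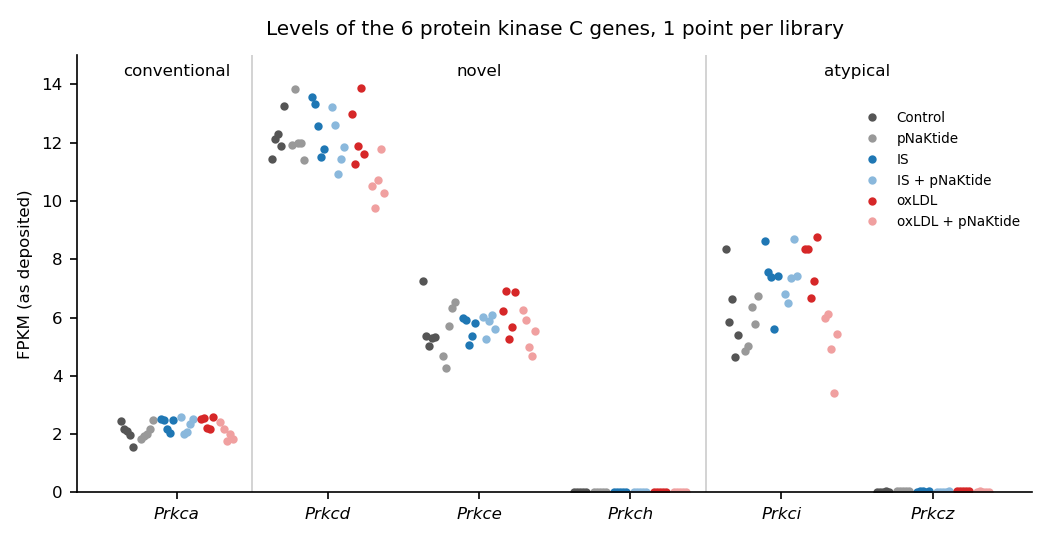
Levels of the 6 PKC genes as deposited FPKM (linear y axis), with 1 point per library, colored by group and ordered by class along the x axis. Prkcd sits between 9.77 and 13.9 FPKM in all 30 libraries, above Prkci, Prkce and Prkca, and Prkch and Prkcz lie at or near 0.

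Each gene was tested in 1 edgeR quasi-likelihood fit of the 6 groups, over the 20139 genes with more than 14 counts in total, and called at a BH-adjusted p-value below 0.1. Of the 6 members 5 were tested and Prkch was not. Any difference among the 6 groups was called for Prkci (adjusted p = 0.00297), Prkcd (adjusted p = 0.0506) and Prkcz (adjusted p = 0.0870) by edgeR, and not for Prkca (adjusted p = 0.133) or Prkce (adjusted p = 0.625). Prkca gained this call when Control replicate 1 was left out (adjusted p = 0.0567, edgeR) or IS replicate 4 was (adjusted p = 0.0774, edgeR), and also without pNaKtide replicate 5 or oxLDL + pNaKtide replicate 1 (adjusted p = 0.0751 and 0.0897, edgeR). The same test called 45.1% of all genes tested. In whole-culture RNA, fewer cells of a kind and less RNA per cell cannot be told apart. Prkcz kept this call in 18 of 30 fits that left out 1 library, with adjusted p-values up to 0.184 in edgeR. Prkcd lost this call in 3 of 30 fits that left out 1 library, namely oxLDL + pNaKtide replicate 1, 2 or 5 (adjusted p = 0.145, 0.208 and 0.147, edgeR). Among the other ways of processing, Prkcd lost it in 3 of 13 (adjusted p up to 0.136), Prkci in 2 of 13 (up to 0.368, with each library's trend over gene length and GC content taken out) and Prkcz in 4 of the 9 that gave it a value (up to 0.161), and Prkca gained it in 3 of 13. Prkce gained the call in 1 of 13, with library size alone (adjusted p = 0.0834, edgeR).

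Prkci, the atypical isoform that sits in the Par polarity complex, had the widest range of group means among the members other than the sparse Prkcz and Prkch. Its group means on the CPM scale, from high to low, were 44.5 ± 4.97 with oxLDL, 41.6 ± 4.83 with IS + pNaKtide, 41.3 ± 6.15 with IS, 34.7 ± 7.94 in Control, 32.0 ± 4.88 with pNaKtide and 28.6 ± 6.17 with oxLDL + pNaKtide (SD, n = 5 each). No neighbours in this order differed by more than the larger of their SDs. Per library, Prkci had 47.3, 46.8, 37.3, 41.5 and 49.5 CPM with oxLDL. With oxLDL + pNaKtide it had 32.9, 33.7, 27.9, 18.4 and 30.4 CPM. The highest library of the second group lay below the lowest of the first, so that these groups did not overlap. In Control it had 46.9, 32.8, 37.5, 26.1 and 30.5 CPM, with replicate 1 at the level of the oxLDL libraries and overlapping with them.

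Prkcd, a calcium-independent isoform known to be turned on by oxidants, stayed within a narrow range. It had 73.4, 63.2, 66.2, 79.3 and 65.4 CPM with oxLDL and 57.9, 53.7, 60.5, 63.1 and 57.3 CPM with oxLDL + pNaKtide. Every library with oxLDL + pNaKtide lay below every library with oxLDL, by as little as 63.1 against 63.2 CPM, and below every Control library (64.0, 67.7, 69.3, 66.6 and 74.6 CPM). In the remaining groups the mean was 67.8 ± 4.73 CPM with pNaKtide, 70.7 ± 5.01 with IS and 67.8 ± 5.04 with IS + pNaKtide (SD, n = 5). The means of the 5 groups other than oxLDL + pNaKtide were thus within 1 SD of one another.

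Prkca, the conventional alpha isoform, had 23.1, 23.1, 20.0, 20.3 and 23.6 CPM with oxLDL. With oxLDL + pNaKtide it had 21.4, 19.4, 16.3, 17.4 and 16.5 CPM, and in Control 22.2, 19.8, 19.4, 17.9 and 14.2 CPM. The oxLDL libraries were high, but replicate 1 of oxLDL + pNaKtide and replicate 1 of Control fell among them, so that the groups overlapped. Its means were 18.7 ± 2.38 CPM with pNaKtide, 21.4 ± 2.05 with IS and 21.1 ± 2.34 with IS + pNaKtide (SD, n = 5).

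Prkce, the epsilon isoform, had group means from 39.6 ± 4.79 CPM with oxLDL + pNaKtide to 45.7 ± 5.40 CPM with oxLDL, a span little over the SD of either group, and Control lay between them at 41.6 ± 6.56 CPM. Control replicate 1 was high for Prkce too, at 53.2 CPM, where the other 4 control libraries had 37.2 to 39.4 CPM.

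**Figure D2:**
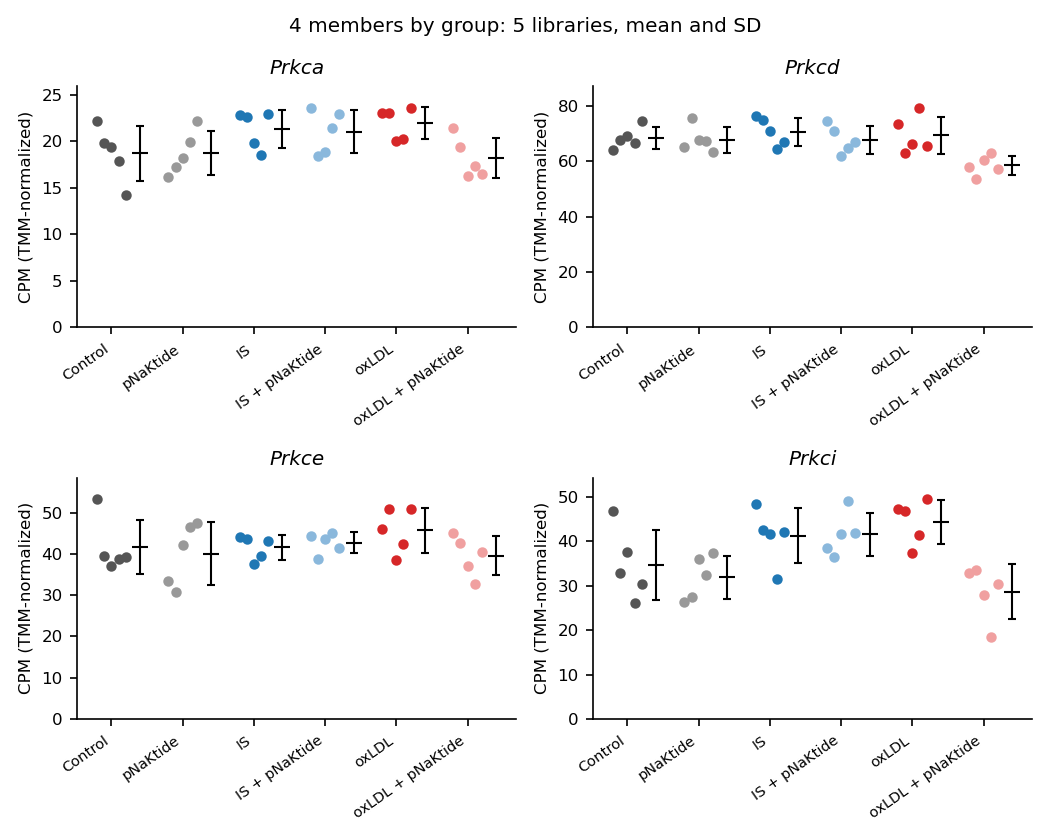
TMM-normalized CPM of Prkca, Prkcd, Prkce and Prkci (y axes from 0) in the 6 groups, with 1 point per library and, beside the points, the mean and SD of the 5 libraries. The oxLDL + pNaKtide libraries lie below all oxLDL libraries for Prkcd (at most 63.1 against at least 63.2 CPM) and Prkci (at most 33.7 against at least 37.3 CPM), but not for Prkca or Prkce.

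The comparison of oxLDL with Control asks which genes respond to the oxidant stress. Prkci was higher with oxLDL by 0.36 on the log2 scale (95% confidence interval 0.07 to 0.65, adjusted p = 0.0587, edgeR), and each of the 5 oxLDL libraries was above the mean of Control. Prkcz was also called, from 18 counts in the oxLDL libraries and 4 in Control. Prkca changed by 0.23 (interval 0.01 to 0.46, adjusted p = 0.109, edgeR) and Prkce by 0.14 (interval -0.09 to 0.37, adjusted p = 0.382, edgeR), neither past the threshold. The Prkca outcome depended on the processing. Of 14 other ways on the same libraries, 8 called it higher (smallest adjusted p = 0.0231, edgeR), among them DESeq2 (adjusted p = 0.0851). Its value over the 14 ran from -0.06 to 0.36. When 1 library was left out, 7 of 10 fits kept Prkca uncalled. Leaving out oxLDL replicate 3 or 4 called it (adjusted p = 0.0868 and 0.0883, edgeR), as did leaving out Control replicate 1, given below. Prkcd differed by 0.02 (interval -0.13 to 0.18, adjusted p = 0.868, edgeR). Thus 2 of 5 members tested were called, both higher, where 36.0% of all genes tested were called, 18.1% higher and 18.0% lower. The groups did not overlap for 1 member, Prkcz, and for 8.35% of all genes. In this comparison 1 of 12 adipocyte markers was higher and 4 were lower (median -0.18), and 1 of 12 preadipocyte or fibroblast markers was higher and 4 were lower (median -0.22). Summed adipocyte marker levels were 4769 to 6620 FPKM with oxLDL and 5107 to 6991 FPKM in Control, and the part of these markers in the members' values was not tested.

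The Prkci call with oxLDL depended on single libraries and on the processing. It was lost in 2 of 14 other ways of processing, with each library's trend over gene length and GC content taken out (0.07, adjusted p = 0.595, edgeR) and with the trend over GC content alone (0.12, adjusted p = 0.448, edgeR). It was also lost without Control replicate 2, 4 or 5 (adjusted p = 0.123, 0.191 and 0.142, edgeR) and without oxLDL replicate 1, 2 or 5 (adjusted p = 0.113, 0.117 and 0.137, edgeR). Without Control replicate 1 and IS replicate 4 together, the change of Prkci was 0.49 (adjusted p = 0.00215, edgeR). Prkca at 0.31 and Prkce at 0.25 were then past the threshold as well (adjusted p = 0.0231 and 0.0645, edgeR), so that 4 of 5 members were called, where the share of all genes rose from 36.0% to 47.6%. Leaving out Control replicate 1 alone was enough for both (Prkca 0.31, Prkce 0.24, adjusted p = 0.0313 and 0.0748, edgeR). Prkcd then had an adjusted p of 0.992 in edgeR.

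The Prkcz value rests on very few reads. Its counts per library were 0, 1, 0, 2 and 1 in Control and 3, 6, 2, 4 and 3 with oxLDL. As a rate of pooled counts this was 3.99-fold higher (exact 95% interval 1.31 to 16.2, counting error only), and the fitted log2 fold change of 1.84 (adjusted p = 0.0251, edgeR) depends on the prior count. pNaKtide alone had 2, 2, 4, 3 and 2 counts, 3.89-fold the Control rate (interval 1.20 to 16.4), with an adjusted p of 0.683 in edgeR. Control is the low group for this gene, with all other groups at 6 to 18 counts. Of the 4034 windows of 50 bases in its longest coding transcript, 743 (18.4%) are also found in Prkcz2, a gene with 144 counts, and the reads may have been split between both. Control was not the low group for Prkcz2. It had 18 counts in Control, 18 with pNaKtide, 42 with IS and 19 with IS + pNaKtide. With oxLDL it had 34 counts and with oxLDL + pNaKtide 13.

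The comparison of oxLDL + pNaKtide with oxLDL asks what the peptide does under that stress, and here 3 of 5 members were called, all lower. Prkci fell by 0.63 on the log2 scale (95% confidence interval -0.92 to -0.34, adjusted p = 0.000788, edgeR). Prkca fell by 0.28 (interval -0.51 to -0.05, adjusted p = 0.0438, edgeR) and Prkcd fell by 0.25 (interval -0.41 to -0.09, adjusted p = 0.00944, edgeR). Prkce differed by -0.21 (interval -0.44 to 0.02, adjusted p = 0.145, edgeR) and Prkcz by -1.05 (adjusted p = 0.153, edgeR). The summed FPKM of the 6 members was 28.9 ± 1.62 with oxLDL and 23.3 ± 1.29 with oxLDL + pNaKtide (SD, n = 5). Of all genes tested 48.3% were called, 26.1% lower and 22.1% higher. The groups did not overlap for 3 members, Prkcd, Prkci and Prkcz, all lower in CPM, and for 28.4% of all genes. The raw counts of Prkcz did overlap, at 1 to 2 with oxLDL + pNaKtide and 2 to 6 with oxLDL, and it was the scaling to library size that parted them (0.211 against 0.212 CPM). In the same comparison 7 of 12 adipocyte markers were higher and 1 lower (median 0.35), and 4 of 12 preadipocyte or fibroblast markers were higher and 2 lower (median 0.29), with summed adipocyte marker levels of 6306 to 7834 FPKM against 4769 to 6620 FPKM with oxLDL. The part of these markers in the change of the members was not tested. The calls of Prkci and Prkcd were kept in 10 of 10 fits that left out 1 library. The Prkca call was lost without oxLDL + pNaKtide replicate 3 or 5 (adjusted p = 0.106 and 0.126, edgeR). With each library's trend over length and GC content taken out, 1 of 5 members, Prkcd, was called, against 36.8% of all genes, and Prkci was at -0.18 and Prkca at 0.18. Without Control replicate 1 and IS replicate 4, Prkce was past the threshold too (-0.21, adjusted p = 0.0939, edgeR), with 50.7% of all genes. In all, Prkce was called lower in 4 of 14 other ways of processing and higher in 1.

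Against Control, cells with oxLDL + pNaKtide had no member past the threshold, where 5.20% of all genes were called. Prkcd was nearest, at -0.23 (interval -0.39 to -0.07, adjusted p = 0.108, edgeR), and it was the 1 member whose groups did not overlap, as for 4.03% of all genes. DESeq2 called it, at -0.21 with an adjusted p of 0.0574, and so did edgeR without Control replicate 1 and IS replicate 4 (-0.25, adjusted p = 0.0700). In all, 10 of 14 other ways of processing called Prkcd lower here. Prkci differed by -0.27 (interval -0.57 to 0.02, adjusted p = 0.343, edgeR), Prkce by -0.07, Prkca by -0.04 (adjusted p = 0.817 and 0.898, edgeR) and Prkcz by 0.78 from 6 and 4 counts (adjusted p = 0.684, edgeR). These comparisons share the oxLDL + pNaKtide libraries with the one before.

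With IS, the question is the same for a uremic solute, and no member was called, against 7.94% of all genes. Prkci differed by 0.25 (interval -0.04 to 0.54, adjusted p = 0.264, edgeR) and Prkca by 0.19 (interval -0.03 to 0.41, adjusted p = 0.268, edgeR). Prkcd differed by 0.05, Prkce by 0.00 (adjusted p = 0.727 and 1.000, edgeR) and Prkcz by 1.43 from 16 and 4 counts (adjusted p = 0.167, edgeR). No member had groups that did not overlap (1.81% of all genes). Without Control replicate 1 and IS replicate 4, Prkci was called at 0.46 and Prkca at 0.31 (adjusted p = 0.00557 and 0.0301, edgeR), where the share of all genes called rose to 45.4%. Either library alone was enough for Prkci, with an adjusted p of 0.0427 without Control replicate 1 and 0.0779 without IS replicate 4 (edgeR). Prkca was called without Control replicate 1 (0.26, adjusted p = 0.0842, edgeR). Without IS replicate 4, Prkcz was past the threshold as well, at 1.56 (adjusted p = 0.0713, edgeR). With IS against Control, 1 adipocyte marker was higher and 6 were lower of 12 (median -0.34). Of 12 preadipocyte or fibroblast markers 0 were higher and 3 lower (median -0.28). The part of these markers in the members' values was not tested.

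No member was called between IS + pNaKtide and IS. Prkci differed by 0.01 (interval -0.28 to 0.29), Prkce by 0.04 (-0.19 to 0.26), Prkca by -0.02 (-0.24 to 0.20) and Prkcd by -0.06 (-0.22 to 0.09). Prkcz had 9 counts with IS + pNaKtide and 16 with IS. All 5 members tested had an adjusted p of 1 in edgeR, and the call share of all genes was 0%, with 564 genes at an unadjusted p below 0.05 and 0.834% of genes without overlap. Against Control, IS + pNaKtide had no member called (0.358% of all genes) and none without overlap (3.79% of all genes), with Prkci at 0.26 (interval -0.03 to 0.55, adjusted p = 0.298, edgeR), Prkca at 0.17, Prkce at 0.04, Prkcd at -0.01 and Prkcz at 0.86. Without Control replicate 1, Prkci was called here at 0.39 (adjusted p = 0.0503, edgeR), as it was without both libraries, when 32.4% of all genes were called.

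With pNaKtide alone no member was called, and 0.00497% of all genes were, which is 1 gene. The differences from Control were 0.00 for Prkca (interval -0.23 to 0.23), -0.01 for Prkcd (-0.17 to 0.14), -0.05 for Prkce (-0.29 to 0.18) and -0.12 for Prkci (-0.42 to 0.17). Prkcz was the 1 member without overlap (0.934% of all genes), at 1.80 (interval 0.70 to 2.90) on the few counts given above.

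Whether the change with pNaKtide differed by setting was tested as a difference of differences. For Prkci the change under oxLDL was lower than the change with pNaKtide alone by 0.51 (interval -0.92 to -0.09, adjusted p = 0.0836, edgeR), and lower than the change under IS by 0.64 (interval -1.05 to -0.23, adjusted p = 0.0268, edgeR). For Prkcd these differences were -0.24 and -0.19 (adjusted p = 0.133 and 0.219, edgeR), for Prkca -0.28 and -0.26 (adjusted p = 0.224 and 0.247, edgeR), and for Prkce -0.15 and -0.25 (adjusted p = 0.541 and 0.282, edgeR). Prkcz differed by -2.86 in the first (adjusted p = 0.0315, edgeR) and by -0.49 in the second (adjusted p = 0.733, edgeR), on its few counts. Of all genes 24.6% were called in the first and 29.3% in the second. The first difference of Prkcd was past the threshold in 8 of 14 other ways of processing (smallest adjusted p = 0.0226), among them DESeq2 (-0.22, adjusted p = 0.0818), and the second in 3 of 14. Without Control replicate 1 the first difference of Prkca was past it (-0.35, adjusted p = 0.0930, edgeR). The first call of Prkci was kept in 9 of 20 fits that left out 1 library and the second in 20 of 20, and 5 of 14 other ways of processing lost the first (adjusted p up to 0.518) and 2 of 14 the second (up to 0.254).

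Prkca, Prkce and Prkci varied together from library to library, and Prkcd did not follow them. These values hold each library's trend over gene length and GC content, described below. In oxLDL + pNaKtide replicate 4 that trend was -0.650 for Prkca, -0.571 for Prkci, -0.283 for Prkce and 0.117 for Prkcd (log2). In pNaKtide replicate 4 it was 0.028, -0.128, 0.085 and 0.037 in that order. No correlation in this or the next paragraph was computed with the trend taken out, and its part was not tested. Over the 30 libraries, with 10 relations in this family, Pearson's r of log2 CPM was 0.753 for Prkca and Prkci (Spearman's rho 0.842), 0.739 for Prkce and Prkci (rho 0.684) and 0.705 for Prkca and Prkce (rho 0.760). Their permutation p-values were 1e-05, 2e-05 and 3e-05 for r and 1e-05, 7e-05 and 1e-05 for rho, with BH-adjusted values of 3.33e-05, 5e-05 and 6e-05 for r and of 2.5e-05, 0.00014 and 2.5e-05 for rho. The smallest p that 100000 permutations can give is 1e-05. Without the 2 libraries farthest from the median, r was 0.768, 0.666 and 0.727, and within groups, after removing group means, it was 0.620, 0.764 and 0.681 (permutation p adjusted over the 10 relations 0.00346, 0.0002 and 0.0013). Prkcd had an r of 0.132 with Prkca, -0.127 with Prkce and 0.246 with Prkci (rho 0.170, -0.123 and 0.222), with permutation p-values of 0.489, 0.505 and 0.190 for r and 0.368, 0.518 and 0.239 for rho. Without the 2 farthest libraries these values of r were 0.280, -0.148 and 0.223, and within groups -0.214, -0.419 and -0.281. The inverse relation of Prkcd and Prkce within groups was past its test (permutation p = 0.0307, adjusted 0.0438), and those with Prkca and Prkci were not (permutation p = 0.266 and 0.138).

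The shared movement followed the main axis of these libraries. With the score on the first principal component, in which the members themselves are included, Prkci had an r of 0.939 (rho 0.935), Prkca 0.721 (rho 0.783), Prkce 0.661 (rho 0.604) and Prkcd 0.313 (rho 0.230). The permutation p-values for r were 1e-05, 1e-05, 0.00011 and 0.0911 in that order (adjusted 3.33e-05, 3.33e-05, 0.000183 and 0.130), and for rho 1e-05, 1e-05, 0.00055 and 0.219. Without the 2 libraries of most extreme score r was 0.921, 0.712, 0.550 and 0.395. Within groups it was 0.882, 0.541, 0.671 and -0.179 (adjusted permutation p = 0.0001, 0.0127, 0.00123 and 0.362). The lowest score, -57.0, and the lowest Prkci level, 18.4 CPM, belonged to the same library, oxLDL + pNaKtide replicate 4.

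**Figure D3:**
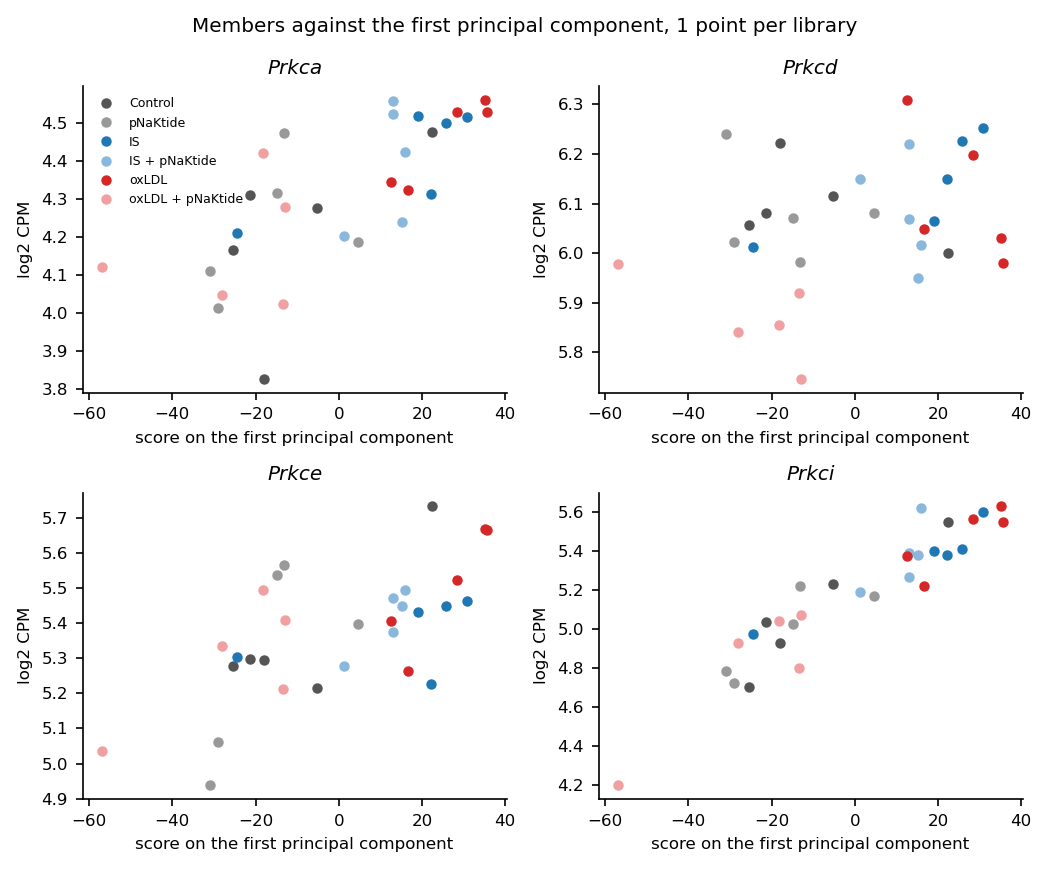
Log2 CPM (TMM-normalized, y axis) of Prkca, Prkcd, Prkce and Prkci against each library's score on the first principal component of 9872 genes (x axis, no unit), with 1 point per library colored by group. Prkci follows the axis in and between groups (r = 0.939), and Prkcd shows little relation to it (r = 0.313).

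The genes most like each member in pattern were taken from the 2 of largest Pearson correlation of log2 CPM over the 30 libraries, among the 12580 genes whose mean log2 CPM was 1 or more. For Prkci these were Usp32 (r = 0.968) and Ttc3 (r = 0.961), and 634 genes reached an r of 0.9. For Prkce they were Adamts9 (r = 0.915) and Ncoa1 (r = 0.905), and 3 genes reached 0.9. For Prkca they were Runx1t1 (r = 0.865) and Spaca6 (r = 0.852), and for Prkcd Pi4kb (r = 0.769), and 0 genes reached 0.9 for either. These are descriptions, and all points share the same libraries.

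Each library's counts carried a trend over gene length and GC content, and this bears on the members unequally, since their longest transcripts run from 2851 bases (Prkcd, 52.2% G and C) through 4708 (Prkci, 44.5%) and 6254 (Prkce, 50.2%) to 8409 bases (Prkca, 46.4%). The trend accounted for 7.49% to 58.4% of the variance of a library's deviations (median 41.2%). With the trend taken out of the fit, the fall of Prkcd with oxLDL + pNaKtide against oxLDL was 0.37 in size (log2 fold change -0.37, adjusted p = 9.08e-05, edgeR). Prkci was then at -0.18 (adjusted p = 0.101, edgeR) and Prkca at 0.18 (adjusted p = 0.144, edgeR), on the other side of 0 from the value above, while Prkce was at -0.02 (adjusted p = 0.843, edgeR). In the comparison of oxLDL with Control, Prkcd was called at 0.17 (adjusted p = 0.0885, edgeR). The origin of this trend was not tested.

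With the length trend alone removed, Prkci was at -0.37 with oxLDL + pNaKtide against oxLDL (adjusted p = 0.00453, edgeR), Prkca at 0.18 (adjusted p = 0.151, edgeR) and Prkce at 0.16, where it was called higher (adjusted p = 0.0789, edgeR). With the GC trend alone removed, Prkci was at -0.28 (adjusted p = 0.0261, edgeR), Prkca at -0.07 (adjusted p = 0.650, edgeR) and Prkce at -0.27, called lower (adjusted p = 0.0758, edgeR). Prkcd was called lower in both, at -0.20 and -0.41 (adjusted p = 0.0208 and 0.000107, edgeR). Among the alternatives tried for this comparison, 14 of 14 left the Prkcd call in place, 13 of 14 the Prkci call and 11 of 14 the Prkca call.

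**Figure D4:**
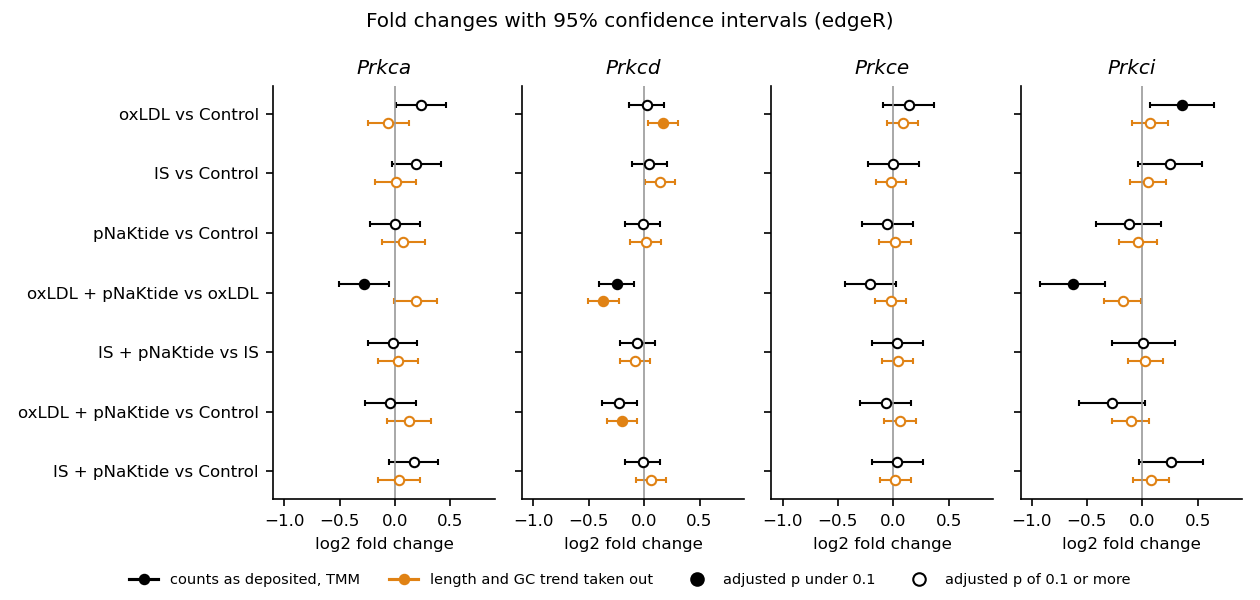
Log2 fold changes (x axis) with 95% confidence intervals for Prkca, Prkcd, Prkce and Prkci in 7 comparisons of groups (y axis), from the counts with TMM (black) and with each library's trend over length and GC content taken out (orange), with filled points for adjusted p-values below 0.1 in edgeR. For oxLDL + pNaKtide against oxLDL, Prkcd is filled in both fits (-0.25 and -0.37), Prkci only in the first (-0.63 and -0.18), and Prkca changes side (-0.28 and 0.18).

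The supply of diacylglycerol, the lipid that the isoforms other than the atypical ones bind, was followed through 13 tested genes of the phospholipase C family. The counts of this and the next lists stand against 18.1% of all genes called higher and 18.0% lower with oxLDL, and 22.1% higher and 26.1% lower with oxLDL + pNaKtide against oxLDL. With the length and GC trend taken out, 20.5% and 36.8% of all genes were called in these comparisons, so that the calls of all genes fell too. With oxLDL against Control 3 were higher and 0 lower (median log2 fold change 0.20, all genes 0.04), and with oxLDL + pNaKtide against oxLDL 2 were higher and 5 lower (median 0.03, all genes -0.09). Plcl1 had the smallest adjusted p with oxLDL, at 3.31 ± 0.342 against 1.74 ± 0.668 CPM (log2 fold change 0.92, adjusted p = 0.00906, edgeR), and also rose with IS by 0.69 (adjusted p = 0.0906, edgeR). Its product is a relative of phospholipase C that lacks the enzyme activity. With oxLDL + pNaKtide, Plcb1, a phospholipase C under G protein control, fell by 0.52 (adjusted p = 0.00538, edgeR) and Plcg1, the one switched on by tyrosine kinases, rose by 0.21 (adjusted p = 0.0363, edgeR). With the length and GC trend taken out, the counts were 2 higher and 0 lower with oxLDL and 2 and 3 with oxLDL + pNaKtide, Plcb1 was at 0.03 (adjusted p = 0.814, edgeR) and Plcg1 at 0.16 (adjusted p = 0.0192, edgeR), and Plcl1 was at 0.58 with oxLDL and 0.46 with IS (adjusted p = 0.0516 and 0.191, edgeR).

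Diacylglycerol kinases, which remove that lipid, gave 2 genes higher and 1 lower of 7 tested with oxLDL, and 1 higher and 1 lower with oxLDL + pNaKtide against oxLDL. Dgkz had 24.0 ± 1.06 CPM with oxLDL, 31.3 ± 5.23 in Control and 30.9 ± 5.25 with oxLDL + pNaKtide (log2 fold changes -0.38 and 0.36, adjusted p = 0.0183 and 0.0134, edgeR). Dgkh went the other way, by 0.61 and -0.64 (adjusted p = 0.0418 and 0.0248, edgeR). None of the 7 was called in either comparison with the trend taken out (20.5% and 36.8% of all genes), with Dgkz at -0.13 and 0.11 and Dgkh at 0.11 and 0.04.

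Genes that prime, hold or turn off PKC gave 5 higher and 5 lower of 16 with oxLDL (median 0.00), and 4 and 4 with oxLDL + pNaKtide against oxLDL (median -0.04), where 36.0% and 48.3% of all genes were called. These counts were 2 and 5, and then 5 and 6, with the trend taken out. Deptor, an inhibitor within the mTOR complexes, the second of which primes PKC, rose by 0.60 with oxLDL and fell by 0.83 with oxLDL + pNaKtide (adjusted p = 0.0144 and 0.000404, edgeR). Prr5, a subunit of the second mTOR complex, was higher with oxLDL + pNaKtide than with oxLDL (63.2 ± 8.67 against 39.0 ± 2.46 CPM, log2 fold change 0.69, adjusted p = 2.27e-05, edgeR) and than in Control (0.37, adjusted p = 0.0519, edgeR). With the trend taken out, these calls of Deptor and Prr5 all remained, at 0.23, -0.24, 0.20 and 0.23 in the same order (adjusted p = 0.0276, 0.00583, 0.0328 and 0.0513, edgeR).

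Among other diacylglycerol receptors and kinases related to PKC, 3 were higher and 2 lower of 15 with oxLDL, and 2 higher and 3 lower with oxLDL + pNaKtide against oxLDL. Of all genes, 36.0% and 48.3% were called there. The counts were 0 higher and 2 lower with oxLDL once the trend was taken out, and 3 higher and 1 lower with oxLDL + pNaKtide (20.5% and 36.8% of all genes). Pkn2, a PKC-related kinase, rose by 0.48 with oxLDL and fell by 0.90 with oxLDL + pNaKtide (adjusted p = 0.0110 and 1.31e-05, edgeR). With the trend taken out Pkn2 was at -0.03 and -0.19 (adjusted p = 0.792 and 0.0141, edgeR). Pkn2 was also lower with oxLDL + pNaKtide than in Control, by 0.42 in size (log2 fold change -0.42, adjusted p = 0.0751, edgeR), and stayed called with the trend taken out (-0.22, adjusted p = 0.0253, edgeR) but not without Control replicate 1 and IS replicate 4 (-0.33, adjusted p = 0.106, edgeR).

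Of 15 tested genes whose products PKC phosphorylates, 3 were higher and 4 lower with oxLDL, and 4 higher and 4 lower with oxLDL + pNaKtide against oxLDL, where 36.0% and 48.3% of all genes were called. There were 4 higher and 0 lower with oxLDL once the trend was taken out, and 3 higher and 2 lower with oxLDL + pNaKtide. Marcks, a classic substrate at the plasma membrane, had 69.9 ± 14.6 CPM with oxLDL, 57.1 ± 11.9 with IS and 38.1 ± 8.66 in Control (log2 fold changes 0.87 and 0.58, adjusted p = 0.00693 and 0.0779, edgeR). Hdac5, a histone deacetylase, was lower with oxLDL and with IS (-0.36 and -0.31, adjusted p = 0.00908 and 0.0728, edgeR). With oxLDL + pNaKtide against oxLDL, Ppp1r14b, a phosphatase inhibitor, rose by 0.98 and Stxbp3, a syntaxin-binding protein, fell by 1.14 (adjusted p = 4.87e-05 and 2.32e-05, edgeR). With the trend taken out Marcks with oxLDL, Ppp1r14b and Stxbp3 remained called (0.64, 0.31 and -0.64, adjusted p = 0.00991, 0.000581 and 2.69e-05, edgeR) while Hdac5 (-0.17 in both comparisons) and Marcks with IS (0.41, adjusted p = 0.109, edgeR) did not. Stx4a was higher with oxLDL + pNaKtide than in Control (0.41, adjusted p = 0.0185, edgeR), but not with the trend taken out (0.31, adjusted p = 0.119, edgeR).

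Of 13 tested partners of the atypical isoforms, 1 was higher and 2 were lower with oxLDL (median -0.07), and 3 were higher and 1 lower with oxLDL + pNaKtide against oxLDL (median 0.07), or 1 and 1, and 3 and 2, with the trend taken out. In the same comparisons 36.0% and 48.3% of all genes were called, and 20.5% and 36.8% with the trend taken out. Pard6b, which docks Prkci to the Par complex, had 2.53 ± 0.419 CPM with oxLDL, 2.52 ± 0.519 with oxLDL + pNaKtide and 1.58 ± 0.338 in Control (log2 fold changes 0.66 and 0.67, adjusted p = 0.0152 and 0.0636, edgeR). Llgl2, a polarity protein, was lower with oxLDL (-0.57, adjusted p = 0.0103, edgeR). Sqstm1, which encodes the p62 scaffold, was higher with oxLDL + pNaKtide than with oxLDL (648 ± 79.9 against 459 ± 54.8 CPM, log2 fold change 0.50, adjusted p = 0.000640, edgeR), where Wwc2 was lower (-0.41, adjusted p = 0.00245, edgeR). Pard3, another Par protein, was lower than in Control by 0.32 in size (log2 fold change -0.32, adjusted p = 0.0733, edgeR). With the trend taken out Pard6b (0.84 with oxLDL and 0.71 with oxLDL + pNaKtide against Control), Sqstm1 (0.28), Wwc2 (-0.16) and Pard3 (-0.24) remained called (adjusted p = 0.0128, 0.0350, 0.00109, 0.0485 and 0.0359, edgeR) and Llgl2 did not (-0.31, adjusted p = 0.167, edgeR).

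In the differences between the changes with pNaKtide, the same lists gave, among others, for oxLDL against pNaKtide alone Plcb1 (-0.51), Dgkz (0.43), Dgkh (-0.80), Prr5 (0.59), Deptor (-0.65), Pkn2 (-0.82), Ppp1r14b (0.86), Add3 (-0.52), Llgl2 (0.65) and Wwc2 (-0.37) as the genes of smallest adjusted p in each direction. For oxLDL against IS they gave Plce1 (-3.51), Prr5 (0.69), Pdpk1 (-0.80), Pkn2 (-0.82), Ppp1r14b (0.88), Stxbp3 (-1.02), Sqstm1 (0.45) and Wwc2 (-0.42), all on the log2 scale and past the threshold in edgeR. Plce1 had 80 counts over all libraries. With the trend taken out, Ppp1r14b and Add3 stayed past the threshold in the first difference, and Plce1, Pdpk1, Stxbp3 and Sqstm1 in the second. No gene of these lists was called with pNaKtide alone, or with IS + pNaKtide against IS or against Control, in the fit of all 30 libraries. For IS + pNaKtide against Control the fit with the trend taken out gave 1 gene higher in the phospholipase C family, 1 higher among those that prime or turn off PKC and 1 lower among the other receptors and related kinases.

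The counts against Control moved without Control replicate 1 and IS replicate 4, as did those of all genes, from 0.358% to 32.4% called for IS + pNaKtide, from 7.94% to 45.4% for IS and from 36.0% to 47.6% for oxLDL. For IS + pNaKtide against Control they then were 4 higher and 0 lower for the phospholipase C family, 3 and 0 for diacylglycerol kinases, 4 and 6 for priming and turn-off, 4 and 1 for the other receptors and related kinases, 4 and 3 for substrates, and 0 and 2 for partners of the atypical isoforms. For IS against Control they were in the same order 4 and 0, 3 and 1, 5 and 6, 5 and 2, 3 and 5, and 1 and 3, where all 30 libraries gave 1 and 0, 0 and 0, 0 and 2, 0 and 0, 2 and 1, and 0 and 0. For oxLDL against Control they were 4 and 2, 3 and 1, 5 and 6, 4 and 2, 3 and 5, and 2 and 3. With pNaKtide alone and with IS + pNaKtide against IS they stayed at 0.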

How the data were processed

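RNA of 3T3-L1 cells was measured in 30 libraries, each in the group of its label. Per the labels and the methods of the study, paired-end reads were trimmed with Trimmomatic 0.38, aligned to GRCm38 with HISAT2 2.1.0 and counted per gene with GenomicAlignments by the authors. The deposited counts are whole numbers without normalization, and the deposited FPKM values are per kilobase and scaled to depth by the authors. The annotation release is not given in the sources used here, nor is the strand setting. Prkca, Prkce, Prkci and Prkcz overlap or hold other genes, and their values are uncertain to that extent. FPKM served for levels between genes and for 2 alternatives, and counts for all tests. A deposited table of normalized counts was not used here.

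Of 54232 genes, 54079 matched a symbol, and 20139 with more than 14 counts in total were fitted with edgeR 4.0.16 (R 4.3.3, TMM, robust quasi-likelihood, 6 groups, common biological coefficient of variation 14.0%). All tests were two-sided, with BH adjustment over all genes and a threshold of 0.1, and the edgeR, DESeq2 and limma steps were tested on simulated data. Log2 CPM used a prior count of 2. Alternatives were DESeq2 1.42.0 (1.20.0 in the study), RLE factors, library size alone, other count filters, a replicate block, limma-trend 3.58.1 on log2(FPKM + 1) and log2(FPKM + 0.1), compared groups alone, offsets for each library's trend over length and GC content (splines of 4 degrees of freedom on 11193 genes), and each library left out. The length trend alone, the GC trend alone and leaving out Control replicate 1 and IS replicate 4 together were added after the data were seen. Correlations used Python 3.11.15 with numpy 2.4.6 and 100000 permutations. Same-numbered libraries were not paired. Libraries of a group differed by more than counting noise (lowest chi-square per degree of freedom 1.30 over 60 pairs). The members and gene lists were chosen with earlier results of these data known. All members were named in every comparison, and from each list the gene past the threshold of smallest adjusted p in each direction, except for some genes that are not reported here.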

Additional observations from a re-analysis of the deposited data

Results flagged for a closer look

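Prkce in Control replicate 1 had 53.2 CPM, where the next library of its group had 39.4 CPM, a gap of 0.862 of the group's range. Of 24 groups of 5 libraries tested this way it was the 1 beyond the limit of 0.71, and chance gives about 1 in 20. The same library was also the highest of its group for Prkci and Prkca. The change of Prkci with pNaKtide under oxLDL differed from that with pNaKtide alone by -0.51 on the log2 scale (adjusted p = 0.0836, edgeR) and from that under IS by -0.64 (adjusted p = 0.0268, edgeR). With the length and GC trend taken out these were -0.14 and -0.20 (adjusted p = 0.518 and 0.254, edgeR). For Prkcz the first difference was -2.86 (adjusted p = 0.0315, edgeR), from 4 counts in Control, 13 with pNaKtide, 18 with oxLDL and 6 with oxLDL + pNaKtide.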

How the results depend on the processing

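Of the values of single members under the alternatives, 576 of 646 kept their side of the threshold, 20 lost the call, 47 gained it and 3 that were called in either fit turned direction. Of the 576, 52 were called in neither fit and changed sign. When each library was left out, 651 of 700 kept their side, 35 of them with a change of sign but no call, 34 lost the call and 15 gained it. The called values that turned were Prkca at 0.18 and 0.18 with oxLDL + pNaKtide against oxLDL, with the length and GC trend or the length trend alone taken out, and Prkce at 0.16 with the latter. With the same trends taken out, uncalled values also crossed 0: Prkca to -0.06 for oxLDL against Control and to 0.11 and 0.16 in the differences from pNaKtide alone and from IS, and Prkce, with the length trend, to -0.07, 0.13 and 0.10. Some filters and the FPKM fits gave no value for Prkcz.

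Counts of members past the threshold moved as follows, and the share of all genes called moved with the setting as well: for oxLDL + pNaKtide against oxLDL (48.3%) it was 51.5% with library size alone and 36.8% with the length and GC trend taken out, for oxLDL against Control (36.0%) 18.2% with the GC trend and 47.6% with both libraries out, and for IS against Control (7.94%) 45.4% with both out. For any difference among groups (3 members), library size alone gave 5, genes with at least 1 count 1, the length trend 1, and RLE size factors, filterByExpr, DESeq2, both FPKM fits, the length and GC trend and the GC trend 2, and leaving out each library 1 to 4. For oxLDL against Control (2), the GC trend gave 1, library size and the replicate block 3, leaving out Control replicate 1 and IS replicate 4 together 4, and each library 1 to 4. Library size and the replicate block called 35.9% and 38.8% of all genes there. For IS against Control (0), both libraries out gave 2, and each library 0 to 2. For oxLDL + pNaKtide against oxLDL (3), library size gave 5, the length and GC trend 1, a minimum of more than 14 counts per library and both libraries out 4, and each library 2 to 4. That minimum and both libraries out called 71.8% and 50.7% of the genes tested. For oxLDL + pNaKtide against Control (0), 1 member, Prkcd, was past it with a minimum of more than 14 counts per library, library size alone, filterByExpr, the replicate block, DESeq2, both FPKM fits, the length and GC trend, the GC trend and both libraries out. These settings called 6.39% to 14.4% of the genes tested, against 5.20% in the main fit. For IS + pNaKtide against Control (0, with 0.358% of all genes called), both libraries out gave 1 (32.4%), and each library 0 to 1. For the difference from pNaKtide alone (2, with 24.6% of all genes called), library size gave 4 (26.2%) and both libraries out 3 (40%). Genes with at least 1 count gave 1 (12.5%), the compared groups alone 1 (21.7%) and the length trend 1 (25.3%). Leaving out each library gave 1 to 3. For the difference from IS (1, with 29.3% of all genes called), library size gave 4 (32.1%). The causes were not tested, but library size alone moved the median of all genes from 0.04 to 0.17 for oxLDL against Control and from -0.09 to -0.30 for oxLDL + pNaKtide against oxLDL.

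With the replicate number as a block, the count for any difference stayed at 3, that for oxLDL + pNaKtide against oxLDL at 3, that for oxLDL against Control became 3, and that for oxLDL + pNaKtide against Control became 1. The share of all genes called rose from 48.3% to 49.6%, from 36.0% to 38.8% and from 5.20% to 8.21% in these 3 comparisons. For IS against Control it rose from 7.94% to 17%, and for IS + pNaKtide against Control from 0.358% to 6.64%. Nothing says that libraries of the same number share more than that number. Over 15 pairs of groups, 0 to 3 of 5 libraries correlated best with their own number. Between libraries of the same number, r ran from -0.764 to 0.856, and a shared effect was not tested. With 0 to 6 counts a library for Prkcz and 0 to 2 for Prkch, depth limits both.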
